A study of Mus musculus with 3 samples.

Results

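RNA levels of 43 genes of the Wnt pathway were compared between stem cell and progenitor populations of mouse bone marrow. The genes were taken by name from a deposited table of 23393 usable gene rows, and all 43 had a row. They cover ligands and the enzyme that acylates them, receptors, antagonists, dishevelled proteins, the beta-catenin destruction complex and the TCF/LEF transcription factors. The 3 libraries, 1 per population, came from C57BL/6 mice carrying a GFP reporter for Map17, and differed by sort gate. GFP+ hematopoietic stem cells (GFP+ HSCs) and GFP- hematopoietic stem cells (GFP- HSCs) were CD48-negative and CD150-positive cells of the LSK compartment (lineage-negative, with Sca-1 and Kit on the surface), with the reporter on or off. Multipotent progenitors (MPPs) were LSK cells of the opposite gate, CD48-positive and CD150-negative, with the reporter off. Neither the age and number of the mice nor pooling is given in the sources used here.

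The measured quantity is the authors' normalized count per gene, called the level. Levels summed to 25311805 in GFP+ HSCs, 25375047 in GFP- HSCs and 26689660 in MPPs once scaled by the authors, and the sequencing depth is unknown. With 1 library per population there was no spread between replicates, no test and no p-value. Every difference below is one between these libraries, counted by a fixed size. Sort markers fitted the gates: Slamf1, which encodes CD150, stood at 2219 in GFP+ HSCs, 2144 in GFP- HSCs and 17 in MPPs, and Cd48 at 64, 168 and 7744 in the same libraries. Pdzk1ip1, the gene also called Map17, stood at 5659 in GFP+ HSCs, 3673 in GFP- HSCs and 290 in MPPs. As in any bulk sample, fewer cells of a type and less RNA per cell cannot be told apart.

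Wnt ligands are secreted lipid-modified proteins. They bind frizzled receptors together with the co-receptors LRP5 and LRP6, and dishevelled then blocks the destruction complex of axin, APC, GSK3 and casein kinase 1, so that beta-catenin builds up and acts in the nucleus with TCF/LEF factors. Other branches use the receptors RYK and ROR2 and do not need beta-catenin. In blood, Wnt signalling is known for effects on stem cell maintenance that depend on dose and branch, and TCF/LEF factors are known for their part in lymphocyte development.

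Differences between HSCs and MPPs were found among receptors, antagonists and TCF/LEF factors. Several receptors, the acyltransferase gene Porcn and the secreted antagonist gene Sfrp1 were many times higher in both HSC libraries than in MPPs. The lymphoid factor gene Tcf7, the antagonist gene Apcdd1 and the co-receptor gene Lrp5 were lower in both HSC libraries. Beta-catenin, the dishevelled genes and the 4 destruction complex genes of the list that were abundant enough to be compared (Axin1, Apc, Gsk3b and Csnk1a1) were within 1.5-fold between all 3 libraries. Between the GFP+ and GFP- HSC libraries the levels were close. Apcdd1 was the one compared member that was 2-fold apart, at levels of 1 and 34 that are low in both.

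Ratios were taken as log2 of (level + 5) in each library, for genes whose level averaged 50 or more over the 3 libraries. Of the 43 members, 27 passed and 16 did not. The members nearest to this limit were Fzd5 (mean 77.7) and Tcf7 (mean 81.7) inside it, and Lef1 (mean 19.0) and Nkd1 (mean 18.7) outside it. Of the 27, Porcn, Fzd4, Ror2, Sfrp1, Apcdd1 and Tcf7 had at least 1 library below 50. They passed because another library was high, so they could only pass by differing.

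**Figure D1:**
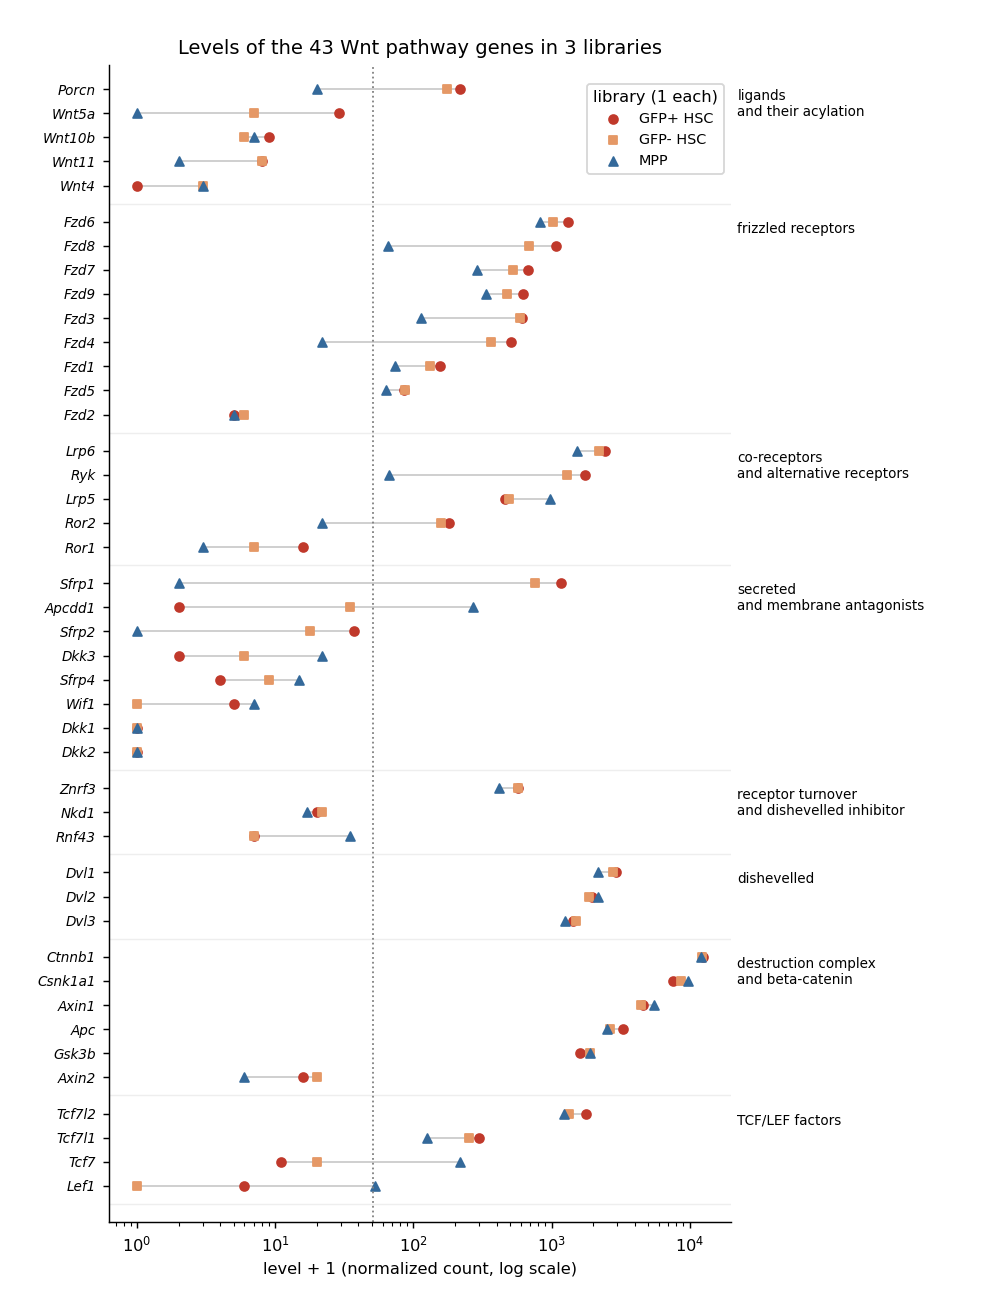
Levels of the 43 genes by role, with 1 point per library; the horizontal axis is level + 1 on a log scale and the dotted line marks a level of 50. Sfrp1, Ryk, Fzd4 and Fzd8 have their HSC points far to the right of the MPP point, while the points of Ctnnb1, Dvl1, Dvl2 and Dvl3 nearly coincide.

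For GFP- HSCs against MPPs, 7 of the 27 members were higher by 2-fold or more and 3 were lower by as much. Over all 11951 genes compared, 11.6% were higher and 5.53% lower by 2-fold or more. The median log2 ratio of the 27 was 0.44 and that of all genes -0.01. The 7 higher members all stood more than 4-fold apart, the least of them being Fzd3 at a log2 ratio of 2.35, and the next member below was Tcf7l1 at 0.99. For GFP+ HSCs against MPPs, 10 of the 27 were higher by 2-fold or more, against 13.7% of all genes, and 3 lower, against 8.61%. The added ones are Fzd1, Fzd7 and Tcf7l1. These comparisons share the MPP library, so they are not independent of each other. Since 6 of the 27 passed only through a high library, the shares describe these libraries and do not set the pathway apart from other genes.

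**Figure D2:**
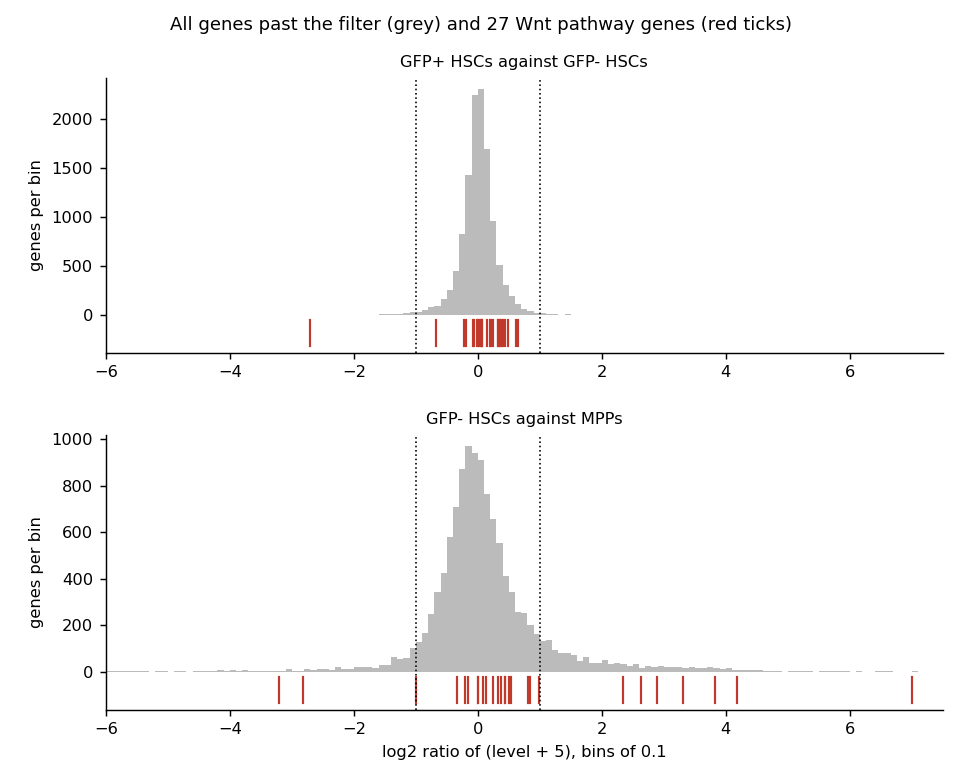
Number of genes in bins of 0.1 of the log2 ratio of (level + 5), for the 11951 genes compared (grey), with the 27 Wnt pathway genes as red ticks and dotted lines at 2-fold. Genes beyond the axis are counted in the outermost bins; in GFP- HSCs against MPPs, 7 ticks lie to the right of the 2-fold line, and in GFP+ against GFP- HSCs 1 tick, Apcdd1, lies outside the lines.

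The promoters of the members that stood far apart were inspected next, where the RefSeq table used here held them. It held 35 windows for 27 of the 43 members, each from 250 bases before to 50 bases after an annotated start in GRCm38.p6. Ryk, Fzd4 and Ror2, 3 receptors high in both HSC libraries, are shown beside Lef1, a factor highest in MPPs, with CG dinucleotides in capitals. The windows are chr9:102834670-102834969, plus strand for Ryk, chr7:89404116-89404415, plus strand for Fzd4, chr13:53286075-53286374, minus strand for Ror2 and chr3:131110047-131110346, plus strand for Lef1, the most upstream of its 4 windows.
Ryk: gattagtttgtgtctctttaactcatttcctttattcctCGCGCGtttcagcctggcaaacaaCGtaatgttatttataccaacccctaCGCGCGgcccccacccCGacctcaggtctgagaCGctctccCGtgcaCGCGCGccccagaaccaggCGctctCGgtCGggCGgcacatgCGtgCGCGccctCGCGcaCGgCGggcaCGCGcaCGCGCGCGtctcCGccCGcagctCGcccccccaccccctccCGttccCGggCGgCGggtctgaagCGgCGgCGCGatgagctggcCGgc
Fzd4: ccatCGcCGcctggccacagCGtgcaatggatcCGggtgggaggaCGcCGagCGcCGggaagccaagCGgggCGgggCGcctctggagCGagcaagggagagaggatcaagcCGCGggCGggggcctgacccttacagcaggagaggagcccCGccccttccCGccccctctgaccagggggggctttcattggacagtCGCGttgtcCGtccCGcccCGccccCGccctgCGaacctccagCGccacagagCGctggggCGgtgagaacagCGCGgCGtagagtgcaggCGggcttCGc
Ror2: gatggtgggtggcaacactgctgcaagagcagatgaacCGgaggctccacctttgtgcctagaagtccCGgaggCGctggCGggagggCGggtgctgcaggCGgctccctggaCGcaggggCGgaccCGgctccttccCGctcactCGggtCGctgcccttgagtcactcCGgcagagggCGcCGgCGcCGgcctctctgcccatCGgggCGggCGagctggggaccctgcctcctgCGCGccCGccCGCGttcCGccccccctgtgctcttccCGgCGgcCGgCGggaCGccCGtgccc
Lef1: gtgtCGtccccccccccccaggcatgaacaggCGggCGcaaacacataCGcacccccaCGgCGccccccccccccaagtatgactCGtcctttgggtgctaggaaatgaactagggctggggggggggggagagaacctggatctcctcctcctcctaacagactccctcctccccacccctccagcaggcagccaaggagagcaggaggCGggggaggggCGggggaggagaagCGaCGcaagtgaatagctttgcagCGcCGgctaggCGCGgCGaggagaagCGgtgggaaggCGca
The windows held 42 CG dinucleotides in Ryk, 32 in Fzd4, 32 in Ror2 and 18 in Lef1. Lef1 does not stand for all factors highest in MPPs: the 2 windows of Tcf7, not printed, held 45 and 17. The median was 23 over the windows of the members and 7 over all 32851 windows of the table. The TCF/LEF motif was searched as CTTTGAT and CTTTGAA and their reverse complements ATCAAAG and TTCAAAG, which covers both strands. It occurred in 2 of the 27 members with a window, Wnt11 and Dkk1, and in 9.88% of all 27025 genes in the table. The letters are in none of the 4 windows printed. A match or its absence describes these windows and says nothing on the factors themselves.

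Ligand transcripts were scarce in all 3 libraries. Wnt5a, a ligand of the beta-catenin-independent branch, stood at 28 in GFP+ HSCs and 6 in GFP- HSCs and was listed at 0 in MPPs. Wnt10b, which signals through beta-catenin, stood at 8 in GFP+ HSCs, 5 in GFP- HSCs and 6 in MPPs. Wnt11 and Wnt4 did not exceed 7 in any library. None of the 4 ligand genes had a mean of 50, and at such levels the authors' scaled whole numbers leave differences uncertain.

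Porcn encodes the membrane enzyme that attaches the lipid to Wnt ligands (chromosome X, 8193846 to 8206548, GRCm38). Its level was 218 in GFP+ HSCs, 173 in GFP- HSCs and 19 in MPPs. It was thus high in both HSC libraries and low in MPPs, with 9.11-fold more in GFP- HSCs than in MPPs. Wls, which carries acylated ligands to the cell surface and is no member of the list, stood at 5893 in GFP+ HSCs, 5155 in GFP- HSCs and 3417 in MPPs, 1.51-fold more in GFP- HSCs than in MPPs.

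All 8 frizzled receptor genes past the limit had more transcript in GFP- HSCs than in MPPs, by log2 ratios of 0.32 to 3.82, where 49.2% of all genes were higher by any amount. The same 8 were higher in GFP+ HSCs, by 0.43 to 4.31, where 50.7% of all genes were. These shares of all genes are not matched on abundance. Fzd4, at the top of both ranges, passed the limit only through its HSC levels, so its direction was set by the filter. With the trend of the ratio on abundance removed, the direction of Fzd5 turned, to -0.19 for GFP- HSCs and -0.20 for GFP+ HSCs against MPPs. The frizzled genes summed to 1082 per kb of transcript in GFP+ HSCs, 822 in GFP- HSCs and 451 in MPPs, so the GFP- HSC sum was 1.82-fold and the GFP+ HSC sum 2.40-fold that of MPPs. Levels per kb are levels divided by the length of the longest GENCODE transcript.

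Fzd4 and Fzd8 were the farthest apart of the family. Fzd4, which is also the receptor for the eye and vessel protein norrin (chromosome 7, 89404366 to 89410110), had a level of 511 in GFP+ HSCs, 362 in GFP- HSCs and 21 in MPPs. Its window is among the sequences printed above. Fzd8, which in mouse HSCs has been tied to signalling that keeps them quiescent (chromosome 18, 9212856 to 9216201), had a level of 1080 in GFP+ HSCs, 688 in GFP- HSCs and 65 in MPPs. Both were high in the HSC libraries and low in MPPs: relative to MPPs, GFP- HSCs had 17.2-fold more Fzd4 and 10.6-fold more Fzd8. Fzd3, known for its role in planar polarity and axon guidance, had a level of 611 in GFP+ HSCs, 590 in GFP- HSCs and 112 in MPPs. It separated HSCs from MPPs by 5.27-fold (GFP- HSCs against MPPs) but not the HSC fractions from each other.

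The other frizzled genes differed less. Fzd6, the most abundant of them per kb in each library, had a level of 1323 in GFP+ HSCs, 1031 in GFP- HSCs and 826 in MPPs. Fzd7 had 673 in GFP+ HSCs, 523 in GFP- HSCs and 289 in MPPs, and Fzd1 had 154, 132 and 73 in the same libraries. Relative to MPPs, both were over 2-fold in GFP+ HSCs and under 2-fold in GFP- HSCs; with the abundance trend removed, the log2 ratio of Fzd1 in GFP+ HSCs against MPPs was 0.56. Fzd9 had 625 in GFP+ HSCs, 477 in GFP- HSCs and 334 in MPPs. Fzd5 was level between the HSC libraries, at 85 in GFP+ HSCs and 86 in GFP- HSCs, with 62 in MPPs, and Fzd2 did not exceed 5.

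The make-up of the family differed accordingly. Fzd6 and Fzd9 were the leading members in each library. Fzd6 took 28.3% of the summed frizzled level per kb in GFP+ HSCs, 29.0% in GFP- HSCs and 42.4% in MPPs. Fzd8 took 16.7% in GFP+ HSCs, 14.0% in GFP- HSCs and 2.41% in MPPs, and Fzd4 took 7.03%, 6.55% and 0.693% in the same libraries. Fzd7 kept nearly the same share, at 13.7% in GFP+ HSCs, 14.0% in GFP- HSCs and 14.1% in MPPs.

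**Figure D3:**
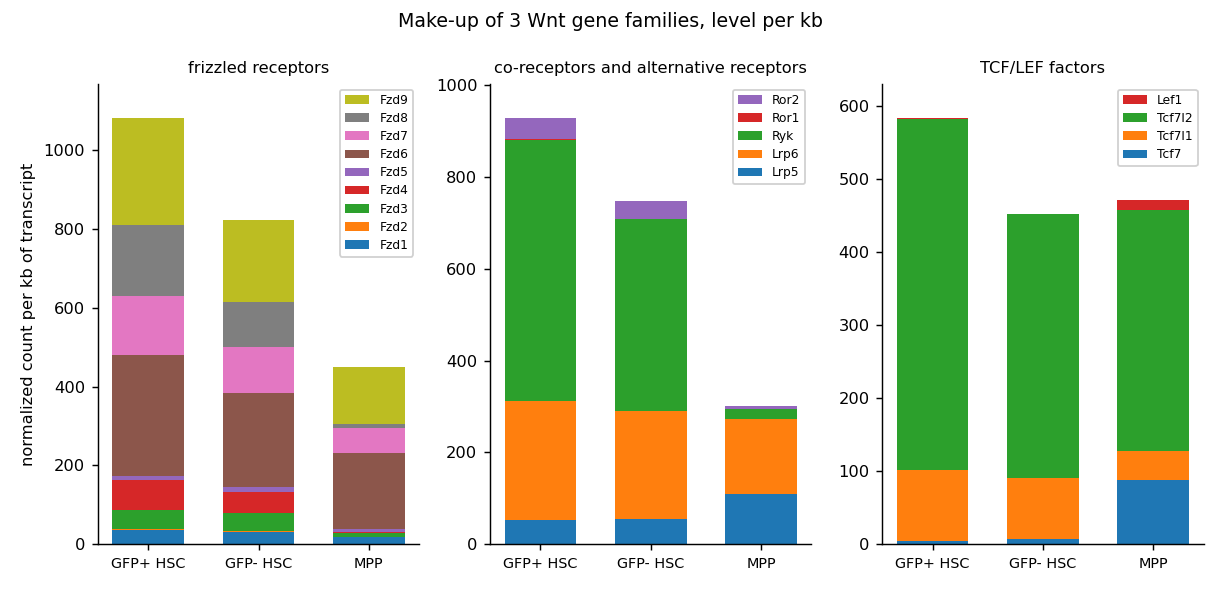
Summed level per kb of transcript (vertical axis, linear from 0) in each library for the frizzled receptors, the co-receptors and alternative receptors, and the TCF/LEF factors, with 1 colour per gene. In the middle panel Ryk fills 61.2% of the GFP+ HSC bar and 7.16% of the MPP bar, and in the right panel Tcf7 fills 0.693% of the GFP+ HSC bar and 18.5% of the MPP bar.

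Among the co-receptors and alternative receptors, Ryk stood out. Ryk encodes a Wnt receptor whose kinase domain is inactive and which binds ligands such as Wnt5a (chromosome 9, 102834920 to 102908307). Its level was 1746 in GFP+ HSCs, 1283 in GFP- HSCs and 66 in MPPs. Relative to MPPs it was 26.5-fold higher in GFP+ HSCs and 19.4-fold higher in GFP- HSCs. Per kb it was above every frizzled gene in both HSC libraries, at 568 in GFP+ HSCs and 418 in GFP- HSCs, but not in MPPs, where it stood at 21.5 per kb and Fzd6 at 191. Its promoter window is the first of those printed.

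Ror2, a receptor tyrosine kinase for Wnt5a (chromosome 13, 53109317 to 53286124), had a level of 180 in GFP+ HSCs, 157 in GFP- HSCs and 21 in MPPs. Relative to MPPs it was 7.48-fold higher in GFP- HSCs, while its relative Ror1 did not exceed 15 in any library. The co-receptors of the beta-catenin branch went in opposite directions. Lrp6 had a level of 2446 in GFP+ HSCs, 2201 in GFP- HSCs and 1522 in MPPs. Lrp5 (chromosome 19, 3584825 to 3686585) had 460 in GFP+ HSCs, 488 in GFP- HSCs and 982 in MPPs. Relative to MPPs, Lrp5 was 2.01-fold lower in GFP- HSCs, at the edge of the 2-fold rule: with either rescaling or a pseudocount of 20 its log2 ratio was -0.92 to -0.98. Together these 5 genes summed to 929 per kb in GFP+ HSCs, 748 in GFP- HSCs and 300.0 in MPPs, and the part of Lrp5 in that sum was 5.57% in GFP+ HSCs, 7.34% in GFP- HSCs and 36.8% in MPPs.

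The antagonists divided into opposite patterns. Sfrp1 encodes a soluble protein that carries the Wnt-binding domain of frizzled receptors (chromosome 8, 23411383 to 23449632). Its level was 1180 in GFP+ HSCs, 764 in GFP- HSCs and 1 in MPPs. It was abundant in both HSC libraries and almost absent from the MPP library, with the highest ratio of any member against MPPs, at a log2 ratio of 7.63 in GFP+ HSCs. Its ratios depend on the pseudocount, because the MPP level is 1. Its relative Sfrp2 stood at 36 in GFP+ HSCs and 17 in GFP- HSCs and was listed at 0 in MPPs.

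Apcdd1, a membrane-bound Wnt inhibitor known also as a target of the pathway (chromosome 18, 62922327 to 62953815), ran the other way. Its level was 1 in GFP+ HSCs, 34 in GFP- HSCs and 269 in MPPs. Relative to MPPs it was 7.91-fold lower in GFP- HSCs, and it was lowest in GFP+ HSCs. Dkk3 stood at 1 in GFP+ HSCs, 5 in GFP- HSCs and 21 in MPPs, and Sfrp4 at 3, 8 and 14 in the same libraries. Wif1, a secreted Wnt-binding protein, did not exceed 6, and the dickkopf genes Dkk1 and Dkk2, whose proteins bind LRP5 and LRP6, were listed at 0 in each library.

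Sfrp1 is known from stromal and endothelial cells as well, so the levels of their markers are given beside it. The 6 endothelial markers summed to 2115 in GFP+ HSCs, 1645 in GFP- HSCs and 571 in MPPs, with none at 0. Of these, Kdr stood at 713 in GFP+ HSCs, 444 in GFP- HSCs and 18 in MPPs, and Cldn5 at 411, 347 and 12. Both had the order of Sfrp1, as had Emcn, Flt4 and Stab2. The endothelial cadherin gene Cdh5 alone did not, at 3 in GFP+ HSCs, 10 in GFP- HSCs and 10 in MPPs. The 8 stromal markers summed to 1514 in GFP+ HSCs, 1279 in GFP- HSCs and 2587 in MPPs. Pdgfrb carried the MPP sum, at 503 in GFP+ HSCs, 589 in GFP- HSCs and 2472 in MPPs. The collagen genes Col1a2 and Col1a1 had the order of Sfrp1, with Col1a2 at 679 in GFP+ HSCs, 457 in GFP- HSCs and 28 in MPPs. Col1a1 stood at 294, 22 and 17 in the same libraries, so its GFP- HSC level was near that of MPPs. Col3a1 did not have this order, at 0 in GFP+ HSCs, 5 in GFP- HSCs and 2 in MPPs. Lepr, Col3a1 and Adipoq were at 0 in GFP+ HSCs, none in GFP- HSCs, and Lepr and Pdgfra in MPPs. The part of these cells in the Sfrp1 level was not tested.

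Znrf3, a ubiquitin ligase that removes frizzled receptors from the surface, had a level of 568 in GFP+ HSCs, 569 in GFP- HSCs and 417 in MPPs. It was level between the HSC libraries and, relative to MPPs, 1.36-fold higher in GFP- HSCs. Its relative Rnf43 stood at 6 in GFP+ HSCs, 6 in GFP- HSCs and 34 in MPPs. Nkd1, which binds dishevelled and dampens the signal, stood at 19 in GFP+ HSCs, 21 in GFP- HSCs and 16 in MPPs.

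The listed genes of the intracellular core differed little. Ctnnb1, which encodes beta-catenin, had a level of 12447 in GFP+ HSCs, 12232 in GFP- HSCs and 12146 in MPPs, and the largest of its 3 log2 ratios was 0.04. Csnk1a1, the casein kinase that primes beta-catenin for breakdown, had 7588 in GFP+ HSCs, 8638 in GFP- HSCs and 9657 in MPPs. Over the 5 genes of the destruction complex and beta-catenin past the limit, log2 ratios ran from -0.33 to 0.08 in GFP- HSCs against MPPs and from -0.35 to 0.40 in GFP+ HSCs against MPPs.

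The scaffold genes behaved alike in this respect. Axin1 had a level of 4561 in GFP+ HSCs, 4414 in GFP- HSCs and 5560 in MPPs, and Apc had 3306, 2639 and 2500. Gsk3b had 1613 in GFP+ HSCs, 1890 in GFP- HSCs and 1890 in MPPs. Dishevelled genes link receptors to the complex, and Dvl1 had the highest mean level of them. Its level was 2926 in GFP+ HSCs, 2796 in GFP- HSCs and 2158 in MPPs. Dvl2 had 1977 in GFP+ HSCs, 1876 in GFP- HSCs and 2177 in MPPs, and Dvl3 had 1437, 1496 and 1256. Summed per kb, the dishevelled genes were 1.11-fold and the destruction complex with beta-catenin 0.932-fold in GFP- HSCs relative to MPPs. Axin2, a scaffold that beta-catenin signalling itself induces, stood apart from this group by its scarcity, at 15 in GFP+ HSCs, 19 in GFP- HSCs and 5 in MPPs. Against MPPs its log2 ratios were 1.26 in GFP- HSCs and 1 in GFP+ HSCs. Both met the 2-fold rule, but at levels below the limit for comparison.

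**Figure D4:**
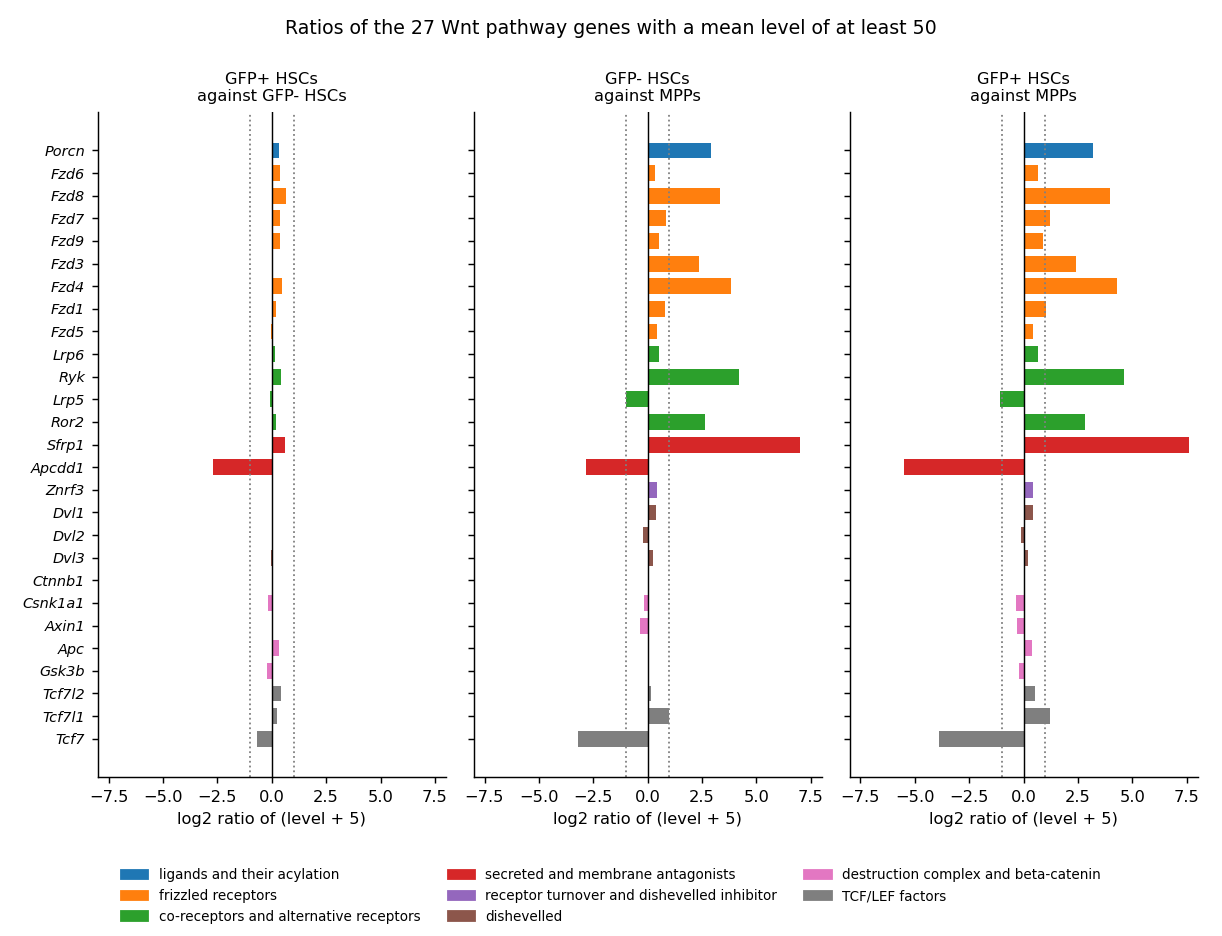
log2 ratio of (level + 5) for the 27 genes past the limit, in 3 comparisons and coloured by role, with dotted lines at 2-fold. The bars of the dishevelled and destruction complex genes stay inside the lines in each panel; in the 2 panels against MPPs, Sfrp1, Ryk, Fzd4, Fzd8, Porcn, Ror2 and Fzd3 reach past the right line, and Tcf7, Apcdd1 and Lrp5 past the left.

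The TCF/LEF factors differed in which member was present more than in their sum. Tcf7l2 led in each library, with a level of 1786 in GFP+ HSCs, 1342 in GFP- HSCs and 1224 in MPPs. Tcf7l1, often a repressor of Wnt target genes, had 298 in GFP+ HSCs, 252 in GFP- HSCs and 124 in MPPs. By level it was 2.40-fold higher in GFP+ HSCs and 2.03-fold higher in GFP- HSCs relative to MPPs, and with the pseudocount of 5 the log2 ratios were 1.23 and 0.99. With the trend on abundance removed, the log2 ratio in GFP+ HSCs against MPPs was 0.96.

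Tcf7, a factor of early T cell development (chromosome 11, 52246527 to 52283383), had a level of 10 in GFP+ HSCs, 19 in GFP- HSCs and 216 in MPPs. Relative to MPPs it was 11.4-fold lower in GFP- HSCs. Lef1, which acts in early B and T cells, stood at 5 in GFP+ HSCs, was listed at 0 in GFP- HSCs and stood at 52 in MPPs. Tcf7 and Lef1 were thus low in both HSC libraries and highest in MPPs. The 4 genes summed to 584 per kb in GFP+ HSCs, 452 in GFP- HSCs and 472 in MPPs. Within that sum Tcf7 took 0.693% in GFP+ HSCs, 1.70% in GFP- HSCs and 18.5% in MPPs, and Tcf7l1 took 16.8%, 18.3% and 8.64%.

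The lymphocyte markers reported, like Tcf7 and Lef1, were each highest in MPPs. Between the HSC libraries, the T cell and B cell sums were slightly higher in GFP+ HSCs, whereas Tcf7 was lower there. The 8 T cell markers summed to 102 in GFP+ HSCs, 95 in GFP- HSCs and 362 in MPPs. Cd4 made up most of this, at 98 in GFP+ HSCs, 91 in GFP- HSCs and 260 in MPPs. Cd3e stood at 16 and Bcl11b at 24 in MPPs, while Cd3e was listed at 0 in both HSC libraries and Bcl11b stood at 1 in GFP+ HSCs and was listed at 0 in GFP- HSCs. Of the 8, 3 were at 0 in GFP+ HSCs, 5 in GFP- HSCs and 0 in MPPs. The 5 B cell markers reported summed to 887 in GFP+ HSCs, 760 in GFP- HSCs and 1269 in MPPs, with 2 at 0 in each HSC library (Ms4a1 and Pax5) and 0 at 0 in MPPs. Cd79b carried this sum, at 870 in GFP+ HSCs, 749 in GFP- HSCs and 1109 in MPPs. The others differed more, as did Cd79a at 10 in GFP+ HSCs, 7 in GFP- HSCs and 91 in MPPs. The part of lymphoid cells in these levels was not tested.

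GFP+ and GFP- HSCs were set side by side to ask how the reporter divides the stem cell gate. Of the 27 members, 0 were higher in GFP+ HSCs by 2-fold or more, against 0.41% of all genes, and 1, Apcdd1, was lower by as much, against 0.87%. At 1.5-fold, Fzd8 and Sfrp1 were higher (2.5% of all genes) and Apcdd1 and Tcf7 lower (3.05% of all genes). Apcdd1 and Tcf7 were below 50 in both HSC libraries and had passed the limit through their MPP level alone, so their differences here rest on low levels. In any amount, 19 of 27 were higher in GFP+ HSCs, against 51.7% of all genes. The median log2 ratio of the 27 was 0.15, against 0.01 over all genes.

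Fzd8 was 1.57-fold and Sfrp1 1.54-fold higher in GFP+ than in GFP- HSCs, from the levels given above. Of the 8 frizzled genes past the limit, 7 were higher in GFP+ HSCs, against 51.7% of all genes. Their log2 ratios ran up to 0.65, and Fzd5 was at -0.02. Fzd4 was 1.41-fold, Ryk 1.36-fold and Tcf7l2 1.33-fold higher in GFP+ HSCs. Fzd4, Fzd8, Ryk and Sfrp1 were therefore highest in GFP+ HSCs and lowest in MPPs. Other compared members, among them Porcn, Lrp6, Dvl1 and Ctnnb1, had that order too, and its share over all genes was not computed. Apcdd1 and Tcf7, both at low levels in the HSC libraries, had the opposite order, with Tcf7 1.90-fold lower in GFP+ than in GFP- HSCs. Lrp5 and Csnk1a1 had this opposite order as well, at higher levels and with smaller differences between the HSC libraries. With 1 library each, differences of this size cannot be set against a spread between sorts. Among members below the mean of 50, Wnt5a (28 in GFP+ HSCs and 6 in GFP- HSCs) and Lef1 (5 in GFP+ HSCs and listed at 0 in GFP- HSCs) met the 2-fold rule on the log2 ratio of (level + 5).

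Marker levels also differed between the HSC libraries. The 6 neutrophil markers summed to 1837 in GFP+ HSCs and 1259 in GFP- HSCs, and the 5 megakaryocyte markers to 5327 and 9324, none at 0 in either. Elane ran against the neutrophil sum, at 425 in GFP+ HSCs and 557 in GFP- HSCs. Itga2b carried the megakaryocyte sum, at 4095 in GFP+ HSCs and 7032 in GFP- HSCs, and Ppbp ran against it, at 83 and 70. The stromal markers farthest apart were Col1a1, at 294 in GFP+ HSCs and 22 in GFP- HSCs, and Cxcl12, at 29 in GFP+ HSCs and 187 in GFP- HSCs. The part of such cells in the differences between the HSC libraries was not tested.

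The rest of the pathway was followed in 88 further Wnt genes, of which 48 averaged 50 or more. In GFP- HSCs against MPPs, 6 of the 48 were higher by 2-fold or more and 0 lower by as much, against 11.6% and 5.53% of all genes. The 6 were Tle6, Tle2, Apc2, Lgr4, Fosl1 and Lrp4. Fosl1 and Lrp4 were at the edge of the 2-fold rule, with log2 ratios of 1.05 for Fosl1 and 1 for Lrp4. With a pseudocount of 20 the count was 4. Tle2 and Tle6 belong to the Groucho family, whose typical members act as co-repressors of TCF/LEF factors. Tle2 had a level of 2845 in GFP+ HSCs, 2044 in GFP- HSCs and 575 in MPPs, and Tle6 had 1744, 1583 and 363 in the same libraries. Tle3 had the lowest of the ratios, with 1613 in GFP+ HSCs, 1656 in GFP- HSCs and 3085 in MPPs, a log2 ratio of -0.90 in GFP- HSCs against MPPs. The Groucho family therefore differed in direction between its members.

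Lgr4, a receptor for R-spondins, which protect frizzled receptors from Znrf3 and Rnf43, had a level of 426 in GFP+ HSCs, 312 in GFP- HSCs and 117 in MPPs. Apc2, a relative of Apc, had 503 in GFP+ HSCs, 439 in GFP- HSCs and 147 in MPPs. Lrp4, a relative of Lrp5 and Lrp6, had 96 in GFP+ HSCs, 53 in GFP- HSCs and 24 in MPPs. All 3 were named for being higher in GFP- HSCs than in MPPs, and they were higher in GFP+ HSCs too. Lrp4 passed the limit only through its HSC levels. After Tle3, the lowest ratios in GFP- HSCs against MPPs were those of Cby1, which binds beta-catenin (-0.72), Cd44 (-0.69), Ptk7 (-0.57) and Ppard (-0.47), none of them 2-fold apart. None of the 15 further ligand genes had a mean of 50. In GFP+ HSCs against MPPs, 9 of the 48 were higher by 2-fold or more and 0 lower, against 13.7% and 8.61% of all genes. Between the HSC libraries 0 of the 48 were 2-fold apart in either direction, against 0.41% of all genes higher and 0.87% lower.

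The library chemistry does not keep the strand of a read, and a read from such an overlap may come from either gene. Exons of 11 of the 43 members overlap an exon of a gene on the other strand in GENCODE M21, by at most 18.3% of the exon bases of a member. The share was over 10% for Dvl2, Fzd5, Sfrp2, Ctnnb1 and Lef1. Ryk, Fzd4, Fzd8, Fzd3, Ror2, Porcn, Sfrp1, Apcdd1, Tcf7 and Lrp5 had no such overlap.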

How the data were processed

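RNA of 3 sorted populations was profiled with 1 library each. Per the labels' protocols, TRIzol and a PicoPure kit gave the RNA, and the SMART-seq v4 kit turned low input into cDNA, by a full-length PCR chemistry that has no molecular identifiers and keeps no strand. The submitters' processing notes name STAR and DESeq2 and the genome build mm10, while versions, annotation and counting tool are not stated there. The deposited values are the authors' normalized counts, held as whole numbers and treated as a score. All values were whole, and no whole number up to 50 was missing from any column, so reads could not be recovered, the depth is unknown and no counting interval or limit of detection was computed. A gene at 0 is called listed at 0.

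Of 23420 rows, 27 with a date in place of a gene name were left out. Ratios are log2 of (level + 5), for the 11951 genes with a mean of at least 50, and genes at least 2-fold apart were counted. The fold of a single gene is the ratio of its levels as deposited. Members with any 2-fold difference, the leading member of each role and the members nearest to the mean limit are named, and the others are given by value. Of the further pathway genes, the 5 highest and 5 lowest ratios of GFP- HSCs against MPPs are named, and a few others, such as Wls, were chosen after their values were seen. 1 marker gene fixed with the lists is not reported here. The members and lists were chosen with earlier results of these data known. Lengths are those of a gene's longest transcript in GENCODE M21, coordinates are from RefSeq (GRCm38.p6, the assembly behind mm10), and promoter sequences are RefSeq's. The ratio and the 2-fold rule were tested on simulated libraries with known 4-fold differences, scored on genes away from low levels. Differences near 2-fold and members with a low level were not covered by that test. Other settings tried were a pseudocount of 1 or 20, a minimum mean of 10, 200 or none, totals or upper quartiles made equal, a lowess trend on abundance taken out, and rules of 1.5-fold and 4-fold. The software was Python 3.11.15 (numpy 2.4.6, pandas 2.3.3, statsmodels 0.14.6, matplotlib 3.10.9).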

Additional observations from a re-analysis of the deposited data

How the results depend on the processing

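Under the alternatives tried, no member that was 2-fold apart changed direction. Of 405 ratios of single members recomputed under other pseudocounts, rescaling or removal of the abundance trend, 396 stayed on their side of the 2-fold rule, and 7 changed sign or moved off 0, all of them of members under 2-fold. The members that crossed the rule were Lrp5, Fzd1 and Tcf7l1.

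Counts depended mainly on the minimum mean. Shares of all genes were not computed for the other minimum means, so these counts show how the calls move and are no result about the members. For GFP+ against GFP- HSCs, 2 members were at least 2-fold higher with a minimum mean of 10 or none and at 1.5-fold, in place of 0. Members at least 2-fold lower numbered 0 with a minimum mean of 200 and 2 at 1.5-fold, in place of 1. For GFP- HSCs against MPPs, 11 members were higher with no minimum, in place of 7. The lower ones, 3 in the report, numbered 5 with a minimum of 10, 1 with 200 and 7 with none, both for GFP- HSCs and for GFP+ HSCs against MPPs. The median log2 ratio of members was 0.31 with no minimum and 0.33 with the abundance trend removed for GFP- HSCs against MPPs (0.44 in the report), and 0.43 with no minimum for GFP+ HSCs against MPPs (0.54).

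Among the further pathway genes, those higher in GFP- HSCs than in MPPs (6) numbered 10 with a minimum of 10, 13 with none, 12 at 1.5-fold and 1 at 4-fold. With a pseudocount of 20 they numbered 4. Those lower (0) numbered 1 with a minimum of 10 or with the trend removed, 4 with none and 3 at 1.5-fold. In GFP+ HSCs against MPPs, those higher (9) numbered 16 with no minimum and 2 at 4-fold, and those lower (0) numbered 1 with a minimum of 10 and 4 with none or at 1.5-fold. In GFP+ against GFP- HSCs, those higher (0) numbered 1 with a minimum of 10, 3 with none and 2 at 1.5-fold, and those lower (0) numbered 3 with none. More or fewer genes enter when the minimum changes. Shares of all genes at these settings were not computed, other than at 1.5-fold for GFP+ against GFP- HSCs, given above. The cause of the other shifts was not tested. No paired analysis was possible because each population has 1 library. The unknown depth limits what can be said of members at low levels.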

Other observations

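The planar polarity branch, in which frizzled receptors act with Vangl, Celsr and Prickle proteins and without beta-catenin, was followed in 10 genes, of which 7 had a mean of at least 50. In GFP- HSCs against MPPs, 0 of the 7 were 2-fold higher and 0 lower, against 11.6% and 5.53% of all genes. In GFP+ HSCs against MPPs, 2 of the 7, Vangl1 and Prickle1, were higher by 2-fold or more and 0 lower by as much, against 13.7% and 8.61% of all genes. Both were near the rule, with log2 ratios of 1.10 for Vangl1 and 1.16 for Prickle1. In GFP- HSCs against MPPs these were 0.81 and 0.87. Vangl1 had a level of 467 in GFP+ HSCs, 382 in GFP- HSCs and 215 in MPPs, and Prickle1 had 736, 602 and 326 in the same libraries. Vangl2, the relative of Vangl1, ran the other way, with 255 in GFP+ HSCs, 335 in GFP- HSCs and 440 in MPPs. Celsr1 was level at 566 in GFP+ HSCs, 544 in GFP- HSCs and 552 in MPPs. Celsr2 had 150 in GFP+ HSCs, 220 in GFP- HSCs and 139 in MPPs. Both pairs of relatives thus held members of unlike pattern. These genes were picked for mention after their values were seen.

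Genes known in other tissues as targets of beta-catenin did not share a direction. Ccnd1, a cyclin of the G1 phase, had a level of 741 in GFP+ HSCs, 574 in GFP- HSCs and 311 in MPPs. Myc had 16129 in GFP+ HSCs, 15568 in GFP- HSCs and 20946 in MPPs. Fosl1 had 272 in GFP+ HSCs, 314 in GFP- HSCs and 149 in MPPs, while Cd44 had 3779, 4341 and 6984. Lgr5, a target in the gut, stood at 38 in GFP+ HSCs, 49 in GFP- HSCs and 24 in MPPs, and Sp5 was listed at 0 in each library.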
